A study of Drosophila melanogaster with 18 samples.

Results

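Synaptotagmins are membrane proteins of vesicles that carry a pair of C2 domains and couple calcium to membrane fusion. The 6 synaptotagmin genes described here are Sytalpha, Sytbeta, Syt1, Syt4, Syt14 and Syt12 of Drosophila melanogaster. They were taken from the deposited gene and isoform tables as every entry whose gene symbols include a listed name, which gave 6 of 14542 gene entries and 22 isoforms. Sytalpha was chosen by its deposited FPKM and q values, which put it higher in the mutants at every stage measured, and the others were taken as its relatives. Its difference between genotypes, at the level of the gene and of its isoforms, is therefore given as a description with no test.

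The study profiled whole animals by RNA sequencing at 3 stages around the larva to pupa transition. Nxt1 trans-heterozygotes, which carry the mutant alleles DG05102 and Z2-0488 of Nxt1 over each other, were set against w1118 animals. Nxt1 encodes a small cofactor of the nuclear mRNA export receptor. All animals were fed with 0.05% bromophenol blue, so that wandering third-instar larvae had blue guts and stationary larvae clear or light blue ones, while white prepupae were within their first hour. Each genotype and stage was represented by 3 samples, 18 in all, and the labels do not say whether these came from separate cultures. The labels give the strain of the trans-heterozygotes as yw and that of the controls as w1118, so the Nxt1 alleles and the strain background cannot be told apart.

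Synaptotagmin 1 is the calcium sensor for fast transmitter release from synaptic vesicles in Drosophila neurons. Synaptotagmin 4 acts on the postsynaptic, muscle side of the larval neuromuscular junction, where it serves retrograde signalling. Sytalpha and Sytbeta are found in peptide-secreting neurons, which store their peptides in dense core granules. Syt12 and Syt14 are less studied in the fly, and their mammalian relatives lack the calcium-binding residues of the family.

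The values are FPKM, fragments scaled by transcript length and library size, with 1 pooled value for each genotype and stage. Values of single samples and counts were not analysed here, so the depth is unknown and no spread between samples can be given. Standard errors of log2 fold changes were derived from the authors' test statistic, and a gene is called where the authors' q is at most 0.05. The 3 stages were tested in separate tables, so levels at different stages are not on a common scale. Nxt1 itself was at 9.28, 15.5 and 17.9 FPKM in trans-heterozygous wandering larvae, stationary larvae and white prepupae, against 11.6, 11.5 and 10.6 FPKM in w1118, with no call at the 3 stages (q = 0.998, 0.788 and 0.480 in the authors' deposited tables). The mRNA level therefore gives no check of the genotype labels. Markers of other tissues moved with genotype in the same samples: 11 testis markers of 13 tested in wandering larvae, and 11 and 11 of 14 each at the later stages, were called lower, while 5 of 15, 8 of 14 and 2 of 13 larval muscle markers were called higher and 1 lower at each stage. Summed over the testis list, the level was 135 to 178 FPKM in trans-heterozygotes and 1142 to 1522 FPKM in w1118 over the stages, and over the muscle list 723 to 3914 FPKM in trans-heterozygotes and 712 to 2914 FPKM in w1118. Gut markers were called higher in 4 of 9, 4 of 9 and 3 of 8 tested, and the salivary gland and fat body list of 11 had 0, 5 and 6 called higher and 0, 0 and 1 lower, with 1 at an unadjusted p under 0.05 in wandering larvae. Over all tested genes, 2.29%, 4.7% and 4.03% were called higher and 9.49%, 13.2% and 12.9% lower at the 3 stages. In whole animals, fewer or more cells of a type and less or more RNA per cell cannot be told apart.

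Sytalpha was about 15 to 21 times higher in the trans-heterozygotes at each of the 3 stages. In wandering larvae it was at 17.6 FPKM in trans-heterozygotes, against 0.944 FPKM in w1118, an 18.7-fold difference (log2 fold change 4.22, standard error 1.43). In stationary larvae the levels were 22.1 FPKM in trans-heterozygotes and 1.47 FPKM in w1118 (log2 fold change 3.91, standard error 0.80). White prepupae held 33.5 FPKM in trans-heterozygotes and 1.63 FPKM in w1118, a 20.6-fold difference (4.36, standard error 0.41). The estimate was least precise in wandering larvae. With the threshold on q, the entry just inside it was Sytalpha in wandering larvae (q = 0.0299) and the entry just outside was Syt4 in wandering larvae (q = 0.0936), both from the authors' deposited table. At a q of at most 0.01, which 1.51% of tested genes met as higher in wandering larvae, the Sytalpha gene entry was not called at that stage.

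**Figure D1:**
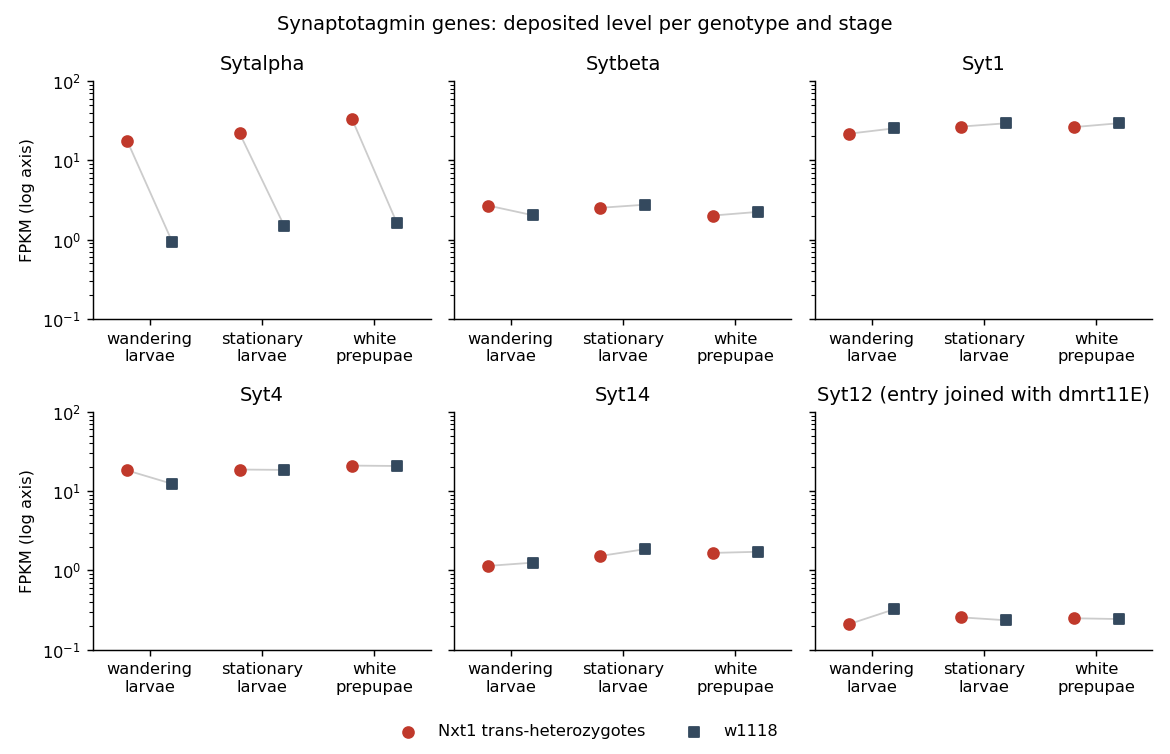
Deposited FPKM (log axis) of the 6 synaptotagmin genes at 3 stages, with 1 pooled value for Nxt1 trans-heterozygotes (red circles, left) and 1 for w1118 (dark squares, right). Sytalpha sits at 17.6 to 33.5 FPKM in trans-heterozygotes and at 0.944 to 1.63 FPKM in w1118, while the paired values of the other genes lie close together.

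Among all tested genes, 2.29% were called higher and 9.49% lower in wandering larvae. The shares were 4.7% higher and 13.2% lower in stationary larvae, and 4.03% higher and 12.9% lower in white prepupae. Of the 6 members, 4 were tested in wandering larvae and 5 at each later stage, and Sytalpha was the member called each time, always higher. The rule used this contrast for Sytalpha, so nothing is read from the count. None of the other members was called by Cuffdiff at any stage: 0 of 3 tested in wandering larvae, and 0 of 4 at each later stage. At an unadjusted p under 0.05 the counts were 1 (Syt4), 0 and 0 at the 3 stages. Genes called higher at all 3 stages made up 0.661% of the 10284 genes tested at all 3, or 68 genes.

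**Figure D2:**
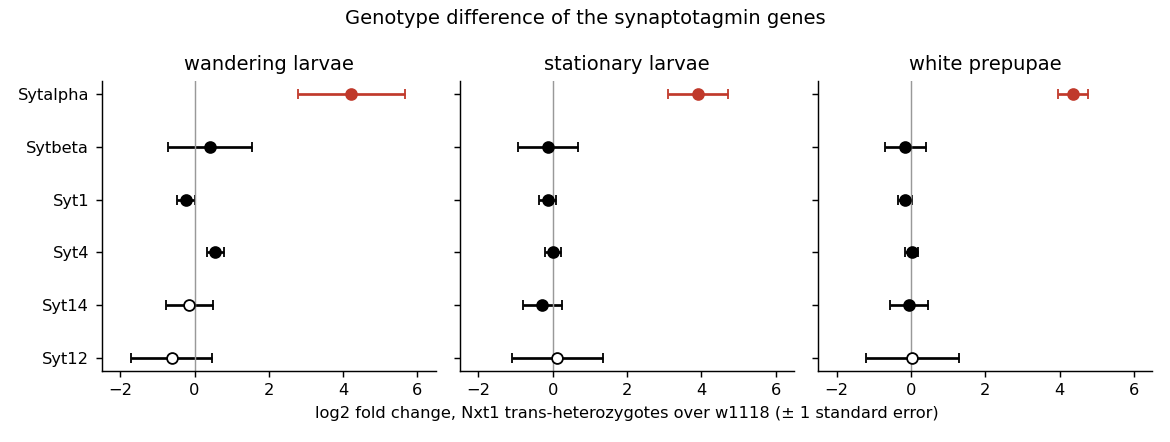
Log2 fold change of trans-heterozygotes over w1118 for each synaptotagmin gene, with bars of 1 standard error; red marks a deposited q of at most 0.05 and open circles mark entries the authors did not test. Sytalpha lies at 4.22, 3.91 and 4.36, and no other member is further from 0 than the -0.62 of the untested Syt12 entry in wandering larvae.

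The order of the family by level differed between genotypes in the place of Sytalpha. In trans-heterozygotes it ranked 3, 2 and 1 of 6 at the successive stages, and made up 28.6%, 30.7% and 39.6% of the summed FPKM of the 6 genes. In w1118 it ranked 5 of 6 at every stage, above Syt12 alone, and made up 2.24%, 2.71% and 2.91% of the sum. The other members kept the same order at every stage in both genotypes: Syt1, Syt4, Sytbeta, Syt14 and Syt12. Without Sytalpha the family summed to 44.0, 49.7 and 51.2 FPKM in trans-heterozygotes and to 41.3, 52.7 and 54.3 FPKM in w1118. With no values of single samples, whether neighbours in this order differ beyond their spread could not be tested.

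The deposited models give Sytalpha 3 isoforms, each with a start site of its own. Nearly all of its level in trans-heterozygotes was assigned to isoform TCONS_00002427, which was at 17.3, 22.1 and 33.5 FPKM in the 3 stages, against 0.750, 0.672 and 1.53 FPKM in w1118. That isoform held 98.1%, 100% and 100% of the gene's FPKM in trans-heterozygotes and 79.4%, 45.8% and 93.7% in w1118. Isoform TCONS_00002425 was listed at 0 in trans-heterozygotes at every stage, against 0, 0.796 and 0.102 FPKM in w1118. Isoform TCONS_00002426 was at 0.338 FPKM in trans-heterozygous and 0.195 FPKM in w1118 wandering larvae, and was listed at 0 in both genotypes later. At levels this low the split of the w1118 level between isoforms varied from stage to stage, and the authors tested no difference in start-site, splicing or coding-sequence usage for Sytalpha. The files do not pair these isoforms with named transcripts.

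**Figure D3:**
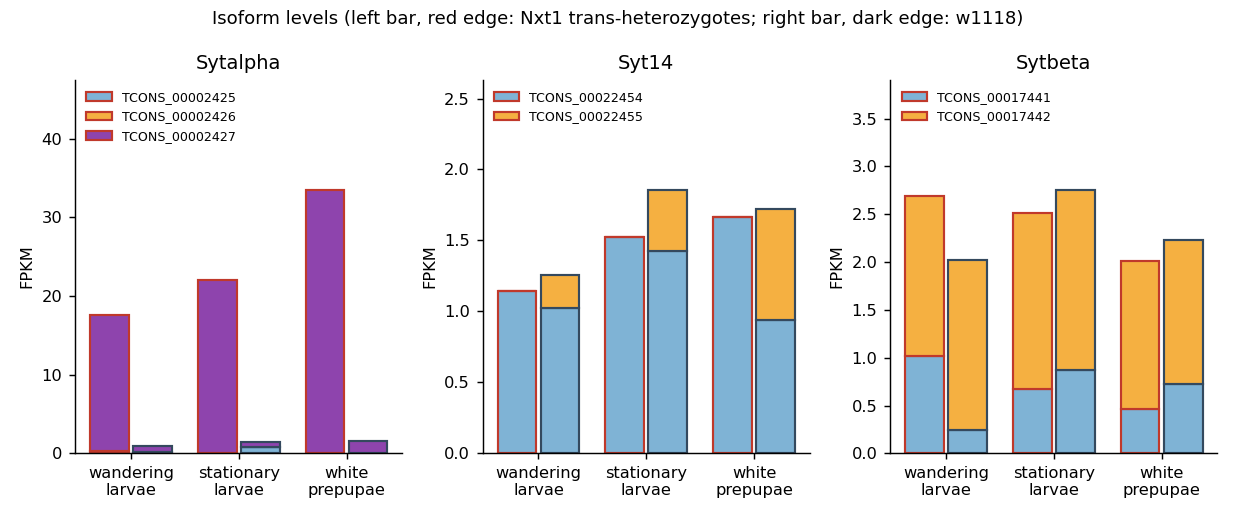
Deposited isoform FPKM, stacked per gene, for Sytalpha, Syt14 and Sytbeta, each with its own linear axis from 0; at each stage the left bar is Nxt1 trans-heterozygotes and the right bar w1118. Isoform TCONS_00002427 fills the Sytalpha bars of trans-heterozygotes, and the upper Syt14 isoform is seen in w1118 bars and not in those of trans-heterozygotes.

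The Sytalpha entry lies on chromosome arm 2L, positions 17591448 to 17603640 in the files' coordinates, whose build is not given in the sources used here. A second entry, CG6870, a gene the files name only by an annotation number, has the same locus in the files. It was also called higher at all 3 stages, with 165, 139.8 and 40.8 FPKM in trans-heterozygotes against 80.9, 31.5 and 5.29 FPKM in w1118. Its log2 fold changes were 1.03 ± 0.23, 2.15 ± 0.27 and 2.95 ± 0.45 (standard errors), with q values of 0.000190, 2.4e-13 and 2.35e-09 in the authors' deposited tables. As listed, CG6870 was lower at each later stage in both genotypes, while Sytalpha was higher, in w1118 only from 0.944 to 1.63 FPKM. Levels at different stages are not on a common scale, and these stage orders were not tested. The FPKM of Sytalpha divided by that of CG6870 was 0.107, 0.158 and 0.821 in trans-heterozygotes, against 0.0117, 0.0466 and 0.308 in w1118.

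In the BDGP6 annotation Sytalpha is on the plus strand and CG6870 on the minus strand, and their exons overlap by 40 bases. The overlap lies in the first exon of Sytalpha-RB, which starts at position 17592260 of that build, and the transcripts RA, RC and RD share no exonic base with CG6870. No source used here says whether the authors' counting used strand, so within those 40 bases reads of the pair cannot be assigned with certainty. The nearest entries outside the shared locus were not called higher. Oli, which encodes a basic helix-loop-helix protein and lies 180 bases to the left, was at 5.79, 5.83 and 7.60 FPKM in trans-heterozygotes and 5.48, 6.29 and 7.66 FPKM in w1118 and was not called (q = 0.9999, 0.964 and 0.996). CG15147, 21459 bases to the right, was at 0.0975, 0.0393 and 0.105 FPKM in trans-heterozygotes and 0.823, 2.40 and 1.83 FPKM in w1118. It was called lower in stationary larvae (q = 0.0133) and white prepupae (q = 0.0370) and was not tested in wandering larvae.

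**Figure D4:**
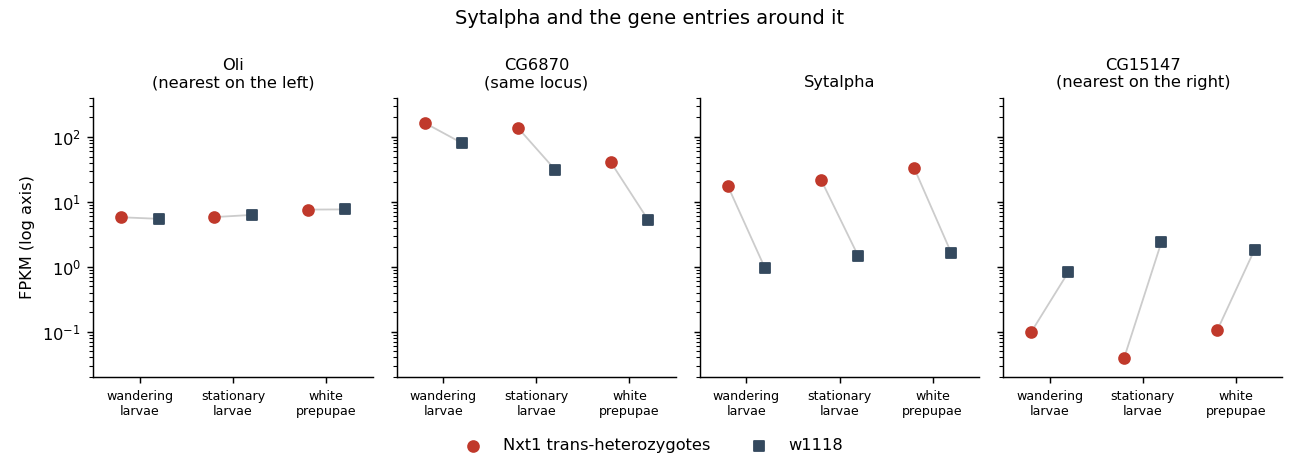
Deposited FPKM (log axis) of Sytalpha, of CG6870 in the same locus and of the nearest entry on each side, for Nxt1 trans-heterozygotes (red circles, left) and w1118 (dark squares, right) at 3 stages. Both entries of the shared locus are higher in trans-heterozygotes, the values of Oli lie close together and CG15147 is lower in trans-heterozygotes.

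The 6 genes whose pattern was most like that of Sytalpha were found by the distance between log2 ratios of FPKM + 1 over the 3 stages, among 9888 single-symbol genes tested at all 3. The nearest was CG9040 on 3L (distance 0.57), at 1434, 367 and 39.1 FPKM in trans-heterozygotes and 179.9, 27.3 and 2.39 FPKM in w1118. CG31810 on 2L (distance 0.92) was at 13.6, 33.9 and 16.0 FPKM in trans-heterozygotes and 1.52, 1.89 and 0.732 FPKM in w1118. CG8664 on X (distance 1.24) was at 538, 237 and 56.2 FPKM in trans-heterozygotes and 101, 34.1 and 6.43 FPKM in w1118. These genes were called higher at all 3 stages. They were picked for ratios close to those of Sytalpha, so high ratios follow from the choice and nothing is read from these calls. CG9040 and CG8664 were listed at lower levels at each later stage in both genotypes. That order of stages was not tested, since levels at different stages are not on a common scale. CG11192 on 2R (distance 1.28) was called at the later stages, with 54.5 FPKM in trans-heterozygous and 6.94 FPKM in w1118 prepupae. CG34215 (distance 1.29) and snoRNA:Psi28S-3091b (distance 1.30), the snoRNA being listed at 0 in w1118 throughout, had no call.

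Sytbeta, the other synaptotagmin of peptide-secreting neurons, was at 2.69, 2.52 and 2.01 FPKM in trans-heterozygotes and 2.03, 2.76 and 2.23 FPKM in w1118. Its log2 fold changes of 0.41 ± 1.13, -0.13 ± 0.81 and -0.15 ± 0.55 were each smaller than their standard error (q = 0.9999, 0.969 and 0.931, authors' deposited tables). The 95% interval of its fold ran from 0.285 to 6.18 in wandering larvae, from 0.304 to 2.74 in stationary larvae and from 0.428 to 1.89 in white prepupae. Of its pair of isoforms, TCONS_00017441 held 38.1%, 26.6% and 23.1% of the gene in trans-heterozygotes and 12.2%, 31.8% and 32.3% in w1118. The gene spans 3L positions 15007795 to 15058077, and 11 other entries lie in that locus. Of these, 7 were tested in wandering and stationary larvae and 6 in white prepupae, and 1 was called, the joined entry of CG12310, CG18581 and CG43679 in stationary larvae, at 437 FPKM in trans-heterozygotes and 213 FPKM in w1118 (q = 0.0170).

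Syt1, the sensor of synaptic vesicles, was the most abundant member in w1118 at every stage. It was at 21.7, 26.6 and 26.2 FPKM in trans-heterozygotes and 25.3, 29.3 and 29.4 FPKM in w1118, slightly lower in trans-heterozygotes each time by less than a standard error. Its log2 fold changes were -0.22 ± 0.24, -0.14 ± 0.24 and -0.16 ± 0.19 (q = 0.866, 0.834 and 0.697, authors' deposited tables). The 95% intervals of the fold were 0.622 to 1.18, 0.658 to 1.25 and 0.692 to 1.15. Of its 10 isoforms, 4 were listed at 0 throughout. Its start-site group TSS2037 held 83.1%, 80.7% and 88.7% of the gene in trans-heterozygotes and 87.8%, 82.1% and 86.4% in w1118. Promoter usage was tested by the authors at each stage and not called (q = 0.891, 0.941 and 0.774), and neither was coding-sequence usage in wandering (q = 0.9999) and stationary larvae (q = 0.899). Over all genes the share called for promoter usage was 4.59%, 8.43% and 10.2% at the 3 stages, and for coding-sequence usage 1.93% in wandering larvae.

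Syt4, the postsynaptic member, had the largest log2 fold change of the tested members other than Sytalpha, in wandering larvae, where its q missed the threshold. There it was at 18.3 FPKM in trans-heterozygotes and 12.4 FPKM in w1118, a log2 fold change of 0.56 ± 0.23 (standard error) with a 95% interval of the fold from 1.09 to 2.00. In stationary larvae it was at 18.7 FPKM in trans-heterozygotes and 18.5 FPKM in w1118, and in white prepupae at 21.0 FPKM in trans-heterozygotes and 20.8 FPKM in w1118. The later log2 fold changes were 0.015 ± 0.21 and 0.016 ± 0.18 (q = 0.988 and 0.977). Its single isoform carries the whole level. Gld, which encodes glucose dehydrogenase and lies 359 bases to the left of Syt4, was called lower at every stage, at 25.8, 23.6 and 4.50 FPKM in trans-heterozygotes against 42.0, 44.6 and 16.2 FPKM in w1118 (q = 0.00957, 0.000143 and 1e-10). GluRIIA, a glutamate receptor subunit of the muscle side of the junction, shares an entry with CG14017 that was called lower at every stage, at 2.27, 2.35 and 1.79 FPKM in trans-heterozygotes against 7.52, 8.67 and 5.84 FPKM in w1118. In the isoform tables the larger part of that gap sat in the CG14017 isoform, at 0.113, 0.301 and 0.154 FPKM in trans-heterozygotes and 3.72, 5.88 and 3.88 FPKM in w1118. The main GluRIIA isoform was at 2.16, 2.05 and 1.64 FPKM in trans-heterozygotes and 3.73, 2.32 and 1.96 FPKM in w1118, and the authors did not test either isoform.

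Syt14 was at 1.14, 1.52 and 1.66 FPKM in trans-heterozygotes and 1.25, 1.86 and 1.72 FPKM in w1118, and was not called where tested (q = 0.847 in stationary larvae and 0.977 in white prepupae). Behind these similar gene levels, the isoforms were listed in different shares in the genotypes. TCONS_00022455 was listed at 2.38e-05, 0 and 0 FPKM in trans-heterozygotes, against 0.233, 0.428 and 0.780 FPKM in w1118, where it made up 18.6%, 23.1% and 45.4% of the gene. TCONS_00022454 was at 1.14, 1.52 and 1.66 FPKM in trans-heterozygotes and 1.02, 1.43 and 0.939 FPKM in w1118. The authors' tables mark TCONS_00022455 as having too few data for a test at every stage, so this split has no test. TCONS_00022454 was tested in stationary larvae (q = 0.976) and white prepupae (q = 0.367) and was not called. Syt12 shares its entry with the transcription factor gene dmrt11E, and the entry stayed below 0.4 FPKM: 0.210, 0.256 and 0.249 FPKM in trans-heterozygotes and 0.323, 0.235 and 0.244 FPKM in w1118, not tested at any stage. The dmrt11E isoform was listed at 0 except for 0.0461 FPKM in w1118 wandering larvae. At isoform level the tested share of the family was small, with 4, 5 and 4 of 22 isoforms tested at the 3 stages and the Sytalpha isoform the only call among them. Over all tested isoforms 0.757%, 2.22% and 3.06% were called higher. Among start-site groups the Sytalpha group was the only member called, beside 0.819%, 2.4% and 3.07% of all tested groups. That group holds the single isoform TCONS_00002427, so its call repeats that of the isoform. Sytalpha was chosen for its calls, so nothing is read from either count.

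Whether the genotype effect of a member differed between stages was tested for the 4 members other than Sytalpha that the authors tested at 2 or more stages, by a two-sided normal test of the difference of log2 fold changes. None of the 10 differences passed an adjusted p of 0.05, and none had an unadjusted p under 0.05. Over all genes this test called 0.66% between wandering and stationary larvae, 0.861% between stationary larvae and white prepupae, and 1.06% between wandering larvae and white prepupae. For Syt4 the effect in white prepupae minus that in wandering larvae was -0.54 on the log2 scale (standard error 0.29). The effect in stationary larvae minus that in wandering larvae was -0.55 (standard error 0.31).

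The secretory machinery in which synaptotagmins work was followed through 6 lists with 100 entries in all. In wandering larvae 1 of 90 tested entries was called higher and 0 lower, beside 2.29% and 9.49% of all tested genes. In stationary larvae 2 of 92 were called higher and 3 lower, beside 4.7% and 13.2% of all tested genes. White prepupae had 0 of 93 higher and 2 lower, beside 4.03% and 12.9%. At a q of at most 0.01 the counts were 0 higher in stationary larvae and 1 lower in white prepupae, beside 3.19% and 9.56% of all tested genes. At an unadjusted p under 0.05, 3, 12 and 9 entries passed at the 3 stages. The share of all tested genes under that p is not given here. The median log2 ratio of the tested entries was 0.099, 0.075 and -0.028, beside -0.010, -0.044 and -0.049 over all tested genes.

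**Figure D5:**
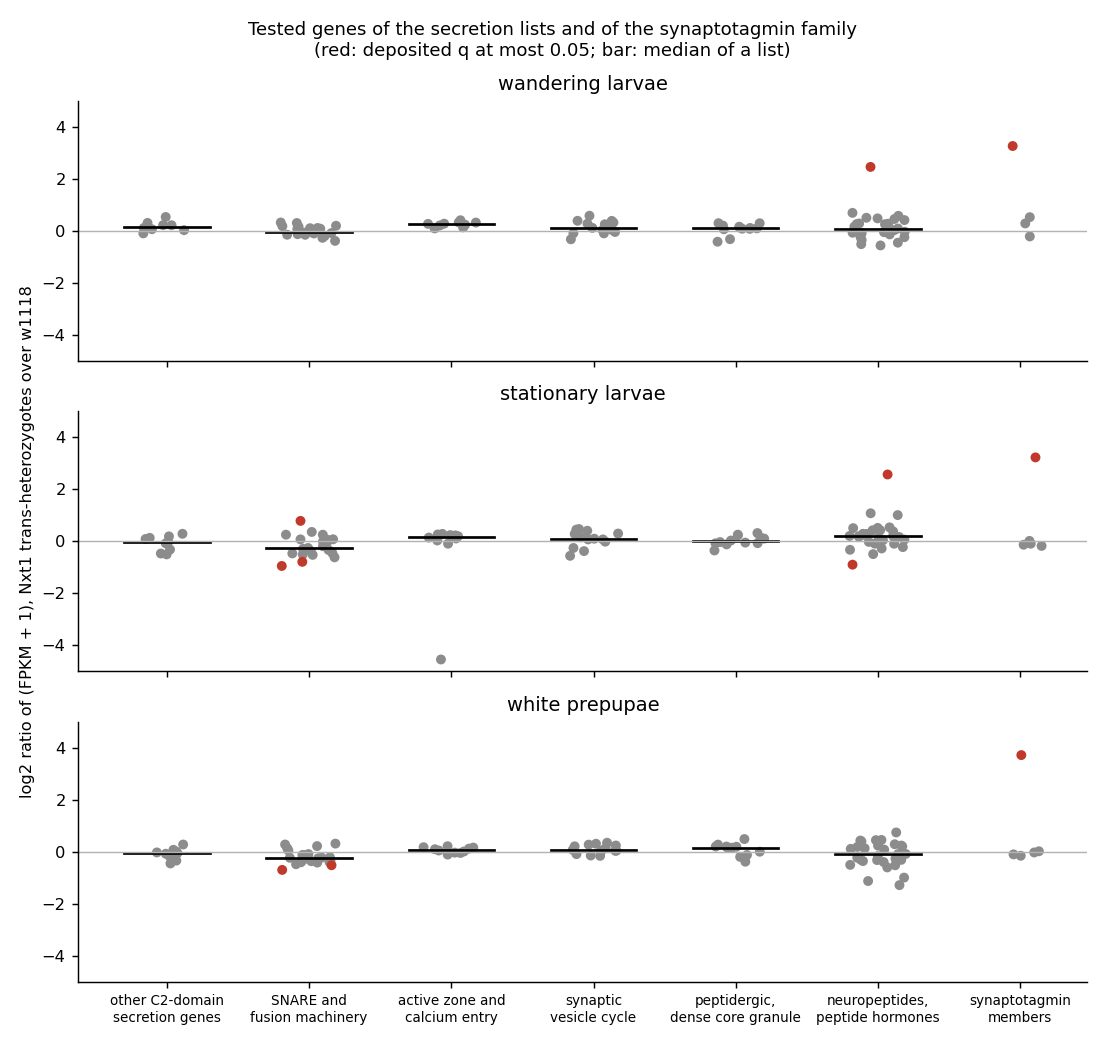
Log2 ratio of FPKM + 1, trans-heterozygotes over w1118, for every tested gene of the 6 secretion lists and of the synaptotagmin family at 3 stages; red points have a deposited q of at most 0.05 and black bars are list medians. Sytalpha, at 3.26, 3.22 and 3.71, is the highest point at each stage, followed by Nplp2 at the larval stages. Sytalpha was chosen for being higher at every stage, so its place is no contrast with the lists. Syt7 is plotted among the other C2-domain secretion genes.

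No other C2-domain secretion gene was called by Cuffdiff, of 8 tested in wandering larvae and 9 at each later stage, and 1, 1 and 0 had an unadjusted p under 0.05. Among them unc-13, which primes vesicles for release, was at 27.1, 30.6 and 34.0 FPKM in trans-heterozygotes and 18.4, 24.9 and 27.9 FPKM in w1118 (q = 0.121, 0.499 and 0.304). The synaptotagmin-like gene btsz was at 30.7, 27.1 and 34.2 FPKM in trans-heterozygotes and 30.1, 38.8 and 43.6 FPKM in w1118, also not called. Of 21 SNARE and fusion genes, wandering larvae had 0 calls, stationary larvae 1 higher and 2 lower, and white prepupae 2 lower. At an unadjusted p under 0.05 the counts were 0, 7 (1 of them higher) and 7 (0 higher). The ratio was positive for 9, 7 and 5 of the 21. The median log2 ratio of this list was -0.046, -0.257 and -0.235, beside -0.010, -0.044 and -0.049 over all tested genes. Snap25, the plasma membrane SNARE of nerve terminals, rose in stationary larvae, at 9.16 FPKM in trans-heterozygotes and 4.90 FPKM in w1118 (q = 0.0477). Syx5, a syntaxin of the Golgi, fell in stationary larvae, at 59.2 FPKM in trans-heterozygotes and 115 FPKM in w1118 (q = 0.000120), and in white prepupae, at 66.9 FPKM in trans-heterozygotes and 109 FPKM in w1118 (q = 0.00127). Syx13, an endosomal syntaxin, fell in stationary larvae (108 FPKM in trans-heterozygotes, 188 FPKM in w1118, q = 0.00122), and Nsf2, an ATPase that takes SNARE complexes apart, fell in white prepupae (18.1 FPKM in trans-heterozygotes, 26.4 FPKM in w1118, q = 0.0360). Syb, a vesicle SNARE of many tissues, was at 266, 254 and 299 FPKM in trans-heterozygotes and 295, 330.5 and 385 FPKM in w1118, and the endosomal syntaxin Syx7 at 75.2, 88.3 and 78.7 FPKM in trans-heterozygotes and 98.5, 108 and 92.4 FPKM in w1118, neither of them called.

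No active zone or calcium entry gene (10 tested at each stage) and no synaptic vesicle cycle gene (14, 13 and 14 tested) was called by Cuffdiff; at an unadjusted p under 0.05 the first list had 0 at every stage and the second 0, 1 and 0. Csp, a chaperone of synaptic vesicles, was at 67.1, 79.7 and 87.0 FPKM in trans-heterozygotes and 69.2, 75.8 and 73.7 FPKM in w1118. The pooled entry of CG14609 and lap, a clathrin adaptor gene, was at 34.7, 44.0 and 52.5 FPKM in trans-heterozygotes and 43.7, 57.5 and 56.2 FPKM in w1118. Liprin-alpha, a scaffold of the active zone, had its 6 values, over both genotypes, between 12.3 and 15.4 FPKM. The adaptor gene nwk was at 2.79, 2.79 and 2.60 FPKM in trans-heterozygotes and 2.55, 87.5 and 2.89 FPKM in w1118, so that its w1118 value in stationary larvae stood far above the other 5; that difference was not called (q = 0.710).

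The dense core granule list, which covers granule formation and peptide processing, had 0 calls by Cuffdiff among 12, 12 and 11 tested genes, with 0, 0 and 2 at an unadjusted p under 0.05. Rab2, a GTPase of granule formation, was at 151, 178 and 215 FPKM in trans-heterozygotes and 142, 182 and 192 FPKM in w1118, and svr, a carboxypeptidase that trims peptide precursors, at 78.9, 69.8 and 85.7 FPKM in trans-heterozygotes and 71.9, 59.6 and 70.8 FPKM in w1118. Among neuropeptide and peptide hormone genes 1 of 26 was called higher in wandering larvae, 1 higher and 1 lower of 28 in stationary larvae, and 0 of 29 in white prepupae, where 0 had an unadjusted p under 0.05. Nplp2 rose in wandering larvae, at 78.0 FPKM in trans-heterozygotes and 13.4 FPKM in w1118 (5.83-fold, q = 3.08e-06), and in stationary larvae, at 17.4 FPKM in trans-heterozygotes and 2.11 FPKM in w1118 (8.27-fold, q = 0.0282). In white prepupae it was at 0.594 FPKM in trans-heterozygotes and 2.89 FPKM in w1118, not called (q = 0.481). Nplp4 fell in stationary larvae, at 93.6 FPKM in trans-heterozygotes and 175 FPKM in w1118 (q = 0.00397). CCHa2, a nutrient-linked peptide hormone, was at 58.8, 58.0 and 63.3 FPKM in trans-heterozygotes and 75.5, 51.6 and 58.6 FPKM in w1118, also not called. Akh, the adipokinetic hormone made in the corpora cardiaca, was at 11.5, 19.2 and 18.0 FPKM in trans-heterozygotes and 8.12, 9.08 and 10.4 FPKM in w1118 and had no call.

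Apart from ple and Ddc, no neuron marker was called. Of 15 tested in each larval stage, 0 were called higher, while 2 were called lower in wandering larvae (ple and Ddc) and 1 in stationary larvae (ple); in white prepupae 1 of 14, Ddc, was called higher. Both genes make dopamine in neurons and also serve cuticle tanning. Summed over the list the level was 296, 1278 and 3222 FPKM in trans-heterozygotes and 552, 2760.4 and 4545 FPKM in w1118, to which ple gave 98.4, 929.8 and 2974 FPKM in trans-heterozygotes and 252, 2377 and 4327 FPKM in w1118. Most single markers went the other way, with a positive ratio for 12 of 15, 11 of 15 and 9 of 14. Their median log2 ratio was 0.277, 0.206 and 0.063, beside -0.010, -0.044 and -0.049 over all tested genes. At an unadjusted p under 0.05, 4, 1 and 2 passed, of which 1, 0 and 1 were higher. The pan-neuronal gene elav was at 28.2, 30.6 and 30.4 FPKM in trans-heterozygotes and 20.2, 26.7 and 28.5 FPKM in w1118 (q = 0.554, 0.806 and 0.882). The neuron marker fne was listed higher, at 27.4, 39.8 and 47.4 FPKM in trans-heterozygotes against 22.1, 35.1 and 38.9 FPKM in w1118. It was not called (q = 0.730, 0.775 and 0.293). Appl, a neuronal membrane protein gene, was listed lower in trans-heterozygotes, at 20.5, 27.3 and 27.0 FPKM, against 28.4, 34.7 and 36.1 FPKM in w1118, and was not called (q = 0.224, 0.320 and 0.0722). Glia markers had 0 calls in wandering larvae and in white prepupae and, in stationary larvae, Eaat1 higher and Gs2 lower of 10 tested; 1 glia marker had an unadjusted p under 0.05 at each of the stages with 0 calls. No marker of the 6 tissue lists was listed at 0 in either genotype, and the part of these tissues in the level of Sytalpha was not tested.

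Syt7, a synaptotagmin outside the 6 and on chromosome 4, was not called as a gene, at 5.33, 6.36 and 6.54 FPKM in trans-heterozygotes and 4.44, 5.46 and 6.18 FPKM in w1118. It had the only called difference in usage among the 6 genes and Syt7, and is named here after its values were seen. Few usage tests were run on the 6 genes, so this is no contrast with them. Syt1 alone was tested for promoter usage, and for coding-sequence usage at the larval stages. For splicing, 0 of 10 start-site groups of the 6 genes were tested at any stage. In stationary larvae its isoform TCONS_00026612 was at 3.06 FPKM in trans-heterozygotes and listed at 0 in w1118 (q = 0.000274). The authors' test of splicing within its main start-site group was called at that stage (q = 0.00176), as was coding-sequence usage (q = 0.00550), where 5.88% of all tested start-site groups and 6% of tested genes were called. At the other stages the isoform was present in both genotypes, at 3.25 FPKM in trans-heterozygous and 1.46 FPKM in w1118 wandering larvae and at 3.73 FPKM in trans-heterozygous and 2.31 FPKM in w1118 prepupae, and neither difference was called (q = 0.346 and 0.466).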

How the data were processed

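RNA was extracted from whole animals with Trizol, made into ScriptSeq libraries from 0.5 ug of total RNA and sequenced as 100 bp read pairs, per the labels' protocols. The submitters' processing notes name Bowtie 1.1.1, Cufflinks and Cuffdiff, without settings; a genome build is not given in the sources used here, nor is an annotation. The 18 deposited tables (6 per stage) hold, per the file headers, the authors' FPKM pooled over the samples of a genotype and stage, a log2 fold change and a test statistic (both treated as scores, since infinite folds are written as an extreme number), a p-value and a q-value; usage tables hold a divergence score with its p-value and q-value. No per-sample columns were left aside (0), and a file mapping single samples was not used here.

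Symbols were matched to entries after splitting on commas. Positions are those of the files with 1 added to the start, because the deposited starts count from 0. Standard errors are the absolute log2 fold change over the absolute deposited statistic; the deposited p-value followed a normal tail within 0.001 for 100% of tested genes with a level above 0 in both genotypes. The 95% intervals are normal intervals on the log2 scale, and cover what the authors' model of spread covers. Calls are status OK with a deposited q of at most 0.05. Differences between stages were tested with a two-sided normal test adjusted by Benjamini-Hochberg over all genes tested at both stages; the step was tested on simulated data. List ratios use a pseudocount of 1 FPKM, which understates changes of low genes. Depth is unknown and limits low isoforms most. p-values measure the spread between the authors' samples, which may be technical.

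The members and lists were chosen with earlier results of these data known. Named were all members with their isoforms, the nearest and overlapping entries, the 6 genes nearest in pattern to Sytalpha and, per list, up to 4 called genes with the largest ratios and up to 2 uncalled genes with the highest mean FPKM; of the 6 tissue lists only the genes that bear on Sytalpha or Syt4 are printed. Python 3.11.15, pandas 2.3.3, numpy 2.4.6, scipy 1.17.1 and matplotlib 3.10.9 were used.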

Additional observations from a re-analysis of the deposited data

How the results depend on the processing

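At a deposited q of at most 0.01 the count of members called higher in wandering larvae was 0 in place of 1, since the gene entry of Sytalpha missed it. The counts of called members rest on Sytalpha, which was chosen for its calls, so they say nothing of stability. A minimum of 1 FPKM removed 0 tested genes at every stage and so tested nothing, for the counts of stage differences too. Over the 6 secretion lists, a q of at most 0.01 left 0 entries called higher in stationary larvae in place of 2, and 1 called lower in white prepupae in place of 2; the stricter threshold itself removes them. Of 54 recomputed member ratios (pseudocounts of 0.1 and 1 FPKM, centring on the median of tested genes), 53 moved by less than a standard error. The exception was Sytalpha in white prepupae, at 3.71 with a pseudocount of 1 FPKM in place of 4.36 (standard error 0.41). With that pseudocount Sytalpha moved further in larvae, from 4.22 to 3.26 in wandering and from 3.91 to 3.22 in stationary larvae. Those shifts lay within the larger standard errors of 1.43 and 0.80. The uncalled ratio of Syt14 in white prepupae, -0.048, equals the median of tested genes and became 0 when centred; no other ratio lost its sign. At a q of at most 0.01, 64 of 72 counts of single lists stayed within 1.5 times. Many of these counts were already 0 at a q of at most 0.05. A stricter threshold cannot change a 0, so the 64 say little of stability. No paired analysis was possible because the deposited columns pool the samples of each group and carry no replicate numbers, and for the same reason leaving out a sample was not run. Depth is unknown, and every entry the authors tested reached 1 FPKM in at least 1 genotype.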
